A study of Mus musculus with 65 samples.

Results

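Interferon-stimulated genes were followed in the hindbrain of mice with an expanded repeat in Atxn1. The 39 genes were taken by name from a list of known interferon response genes and matched by symbol to the count table, so they are 39 of its 49670 gene IDs. The rule uses no measured value, although earlier results of these data were known when the list was drawn up. By role, 4 are transcriptional regulators, 5 are sensors of foreign nucleic acid or helicases that work with them, 8 act on RNA or nucleotides, 3 belong to the Ifit family, 7 act in ubiquitin-like modification or ADP-ribosylation, 4 are antiviral membrane proteins or GTPases, and 8 are other induced genes.

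Type I interferons are secreted by cells that sense foreign or misplaced nucleic acid, and they bind a receptor of the subunits Ifnar1 and Ifnar2. The receptor's kinases activate a complex that includes Stat2 and Irf9, which switches on genes through a DNA element called the ISRE. Many of the induced genes, such as Irf7, Ddx58 and Stat2, encode parts of the same sensing and signalling chain, and in the brain microglia, astrocytes, endothelial cells and neurons can all express them.

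RNA from dissected medulla, pons and cerebellum was sequenced in 65 libraries of C57BL/6J mice. The 3 groups of each region and age were wild type mice given vehicle, knockin mice of the genotype Atxn1[82Q] given vehicle, and knockin mice given an antisense oligonucleotide (ASO) against Atxn1. Medulla at 28 weeks had 8, 8 and 7 libraries in these groups, in 2 labelled batches, and pons at 28 weeks had 4 in each. At 18 weeks there were 4 in each group of cerebellum and 3 in each group of medulla and of pons. The knockin allele is carried by every cell of these mice, and no wild type mice were given the ASO. Whether every library came from its own mouse is not in the labels, and the tests below therefore weigh a difference against the library-to-library spread, which may be technical in part. The numbers in the column names repeat between regions: 12 of them stand on both a medulla and a pons library at 28 weeks, so the 2 regions may share mice and are not independent of each other. At 18 weeks 6 numbers stand on a library of all 3 regions and 3 more on a medulla and a pons library, so comparisons between regions there are not between independent mice either.

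Atxn1 was checked first. Wild type medulla at 28 weeks had a mean of 34.4 ± 3.03 CPM (counts per 1000000 counts, TMM-scaled; ± SD, 8 libraries). The mean was 44.1 ± 3.03 CPM with the knockin allele and vehicle (8 libraries) and 32.6 ± 8.03 CPM with the ASO (7 libraries). The library labelled ASO replicate 2 went against its label in both 28-week tissues (49.3 CPM in the medulla library, 52.4 CPM in the pons library), and at 18 weeks ASO replicate 2 and wild type replicate 3 did so in medulla and in pons, as did wild type replicate 1 in pons (50.98 CPM, above every vehicle-treated knockin library). In edgeR's test Atxn1 was called lower under ASO in medulla at 28 weeks (log2 difference -0.43, adjusted p = 0.027) and in no other set: the difference was -0.61 in pons at 28 weeks (adjusted p = 0.17), -0.79 in cerebellum (0.24), and at 18 weeks -0.89 in medulla (1.0) and -0.61 in pons (0.81). For some results that rest on the libraries that went against their labels, values without these libraries are given below. The interaction models were fitted without ASO replicate 2 and wild type replicate 3, but not without wild type replicate 1 of pons. Hox genes, which mark the hindbrain, summed to 0.35 to 2.19 CPM in cerebellum, 11.6 to 64.6 CPM in pons and at least 33.2 CPM in medulla, where 4 libraries of batch 2 from all 3 groups at 28 weeks stood low. Total counts ranged from 49.2 to 119.1 M per library.

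The DNA before the start of these genes is shown because the ISRE, through which Stat2 and Irf9 act, can be looked for in it. Of the 39 genes, 27 had a promoter window in RefSeq (GRCm38.p6), 250 bases before to 50 after the start. The ISRE core, taken as GAAA and GAAA with any 2 bases between them and counted on both strands with overlapping matches allowed, stood in the windows of 14 of these 27 genes (51.9%) and in 3.99% of the windows of 27025 genes. The motif TTCNNNGAA, the GAS element known from interferon gamma responses, was found in 5 of the 27 (18.5%) and in 9.55% of all genes. A match describes letters and not a bound site. Below are the 250 bases before the start of 6 genes, 5′ to 3′ on the gene's strand. Isg15 (chr4:156200819-156201068, minus strand) has 3 overlapping matches, and Ifit1 (chr19:34640639-34640888, plus), Ifit3 (chr19:34583279-34583528, plus) and Ddx60 (chr8:61927837-61928086, plus) have 2 each. Irf7 (chr7:141266425-141266674, minus) and Oasl2 (chr5:114896684-114896933, plus) are shown because they too rose in both 28-week tissues, while the ISRE core has no match in these letters. Capitals mark the bases of ISRE core matches.
Isg15: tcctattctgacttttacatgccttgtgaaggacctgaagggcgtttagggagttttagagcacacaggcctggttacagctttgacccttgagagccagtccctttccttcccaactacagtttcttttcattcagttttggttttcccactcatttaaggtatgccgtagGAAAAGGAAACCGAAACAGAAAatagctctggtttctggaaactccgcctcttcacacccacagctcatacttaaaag
Ifit1: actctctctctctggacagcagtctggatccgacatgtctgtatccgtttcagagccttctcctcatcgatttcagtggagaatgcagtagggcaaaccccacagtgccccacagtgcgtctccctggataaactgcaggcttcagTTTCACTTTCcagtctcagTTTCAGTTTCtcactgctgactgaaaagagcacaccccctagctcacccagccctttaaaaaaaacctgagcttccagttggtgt
Ifit3: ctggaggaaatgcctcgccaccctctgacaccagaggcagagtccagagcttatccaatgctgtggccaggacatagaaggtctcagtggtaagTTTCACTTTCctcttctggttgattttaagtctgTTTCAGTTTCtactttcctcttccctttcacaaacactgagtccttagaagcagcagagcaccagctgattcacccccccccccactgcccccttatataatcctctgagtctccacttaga
Ddx60: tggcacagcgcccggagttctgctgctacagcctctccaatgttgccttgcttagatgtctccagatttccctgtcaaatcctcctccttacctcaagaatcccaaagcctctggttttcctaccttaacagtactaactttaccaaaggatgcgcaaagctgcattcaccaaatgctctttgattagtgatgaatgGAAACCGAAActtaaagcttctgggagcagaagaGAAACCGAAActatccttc
Irf7: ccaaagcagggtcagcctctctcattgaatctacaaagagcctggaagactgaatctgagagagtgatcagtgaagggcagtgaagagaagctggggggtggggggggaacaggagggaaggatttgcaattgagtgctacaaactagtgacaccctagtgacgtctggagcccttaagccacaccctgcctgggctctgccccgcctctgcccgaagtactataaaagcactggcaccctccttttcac
Oasl2: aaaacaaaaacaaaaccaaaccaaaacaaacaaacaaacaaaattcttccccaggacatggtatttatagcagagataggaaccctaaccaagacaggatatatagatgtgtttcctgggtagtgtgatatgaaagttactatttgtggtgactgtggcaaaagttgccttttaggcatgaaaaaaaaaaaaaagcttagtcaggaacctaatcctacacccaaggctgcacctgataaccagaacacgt
In Ddx60 the 2 matches ended 43 and 9 bases before the start, in Ifit1 94 and 75 bases, and in Ifit3 146 and 112 bases. Isg15 had its 3 matches 68, 62 and 56 bases before the start. Bst2, Gbp3 and Oas1a had 2 matches before the start, and Oas3, Rsad2, Stat2 and Trim30a had 1. In Ddx58, Eif2ak2 and Ifih1 the match lay wholly or partly in the 50 bases after the start.

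The effect of the expanded allele on these genes was read from the knockin and wild type mice that both received vehicle. In medulla at 28 weeks 31 of the 39 rose and 0 fell, at an adjusted p under 0.05 in edgeR's quasi-likelihood test over all genes. Of all 20465 genes tested there, 9.28% were called higher and 9.99% lower. All 39 log2 differences were above 0, with a median of 0.52 and a range of 0.07 to 1.21, beside a median of 0.01 over all genes. In pons at 28 weeks 21 of the 39 rose and 0 fell, against 4.14% of all 20458 genes called higher and 5.65% lower. Again all 39 differences were above 0, with a median of 0.47 and a range of 0.07 to 1.34. Of the 39 genes, 18 rose in both tissues, 13 in medulla alone, 3 (Bst2, Cmpk2 and Ifi27l2a) in pons alone, and 5 (Stat2, Zbp1, Oas2, Oas3 and Ifi27) passed the test in neither. These are bulk tissues, so more cells of a type and more RNA per cell cannot be told apart.

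**Figure D1:**
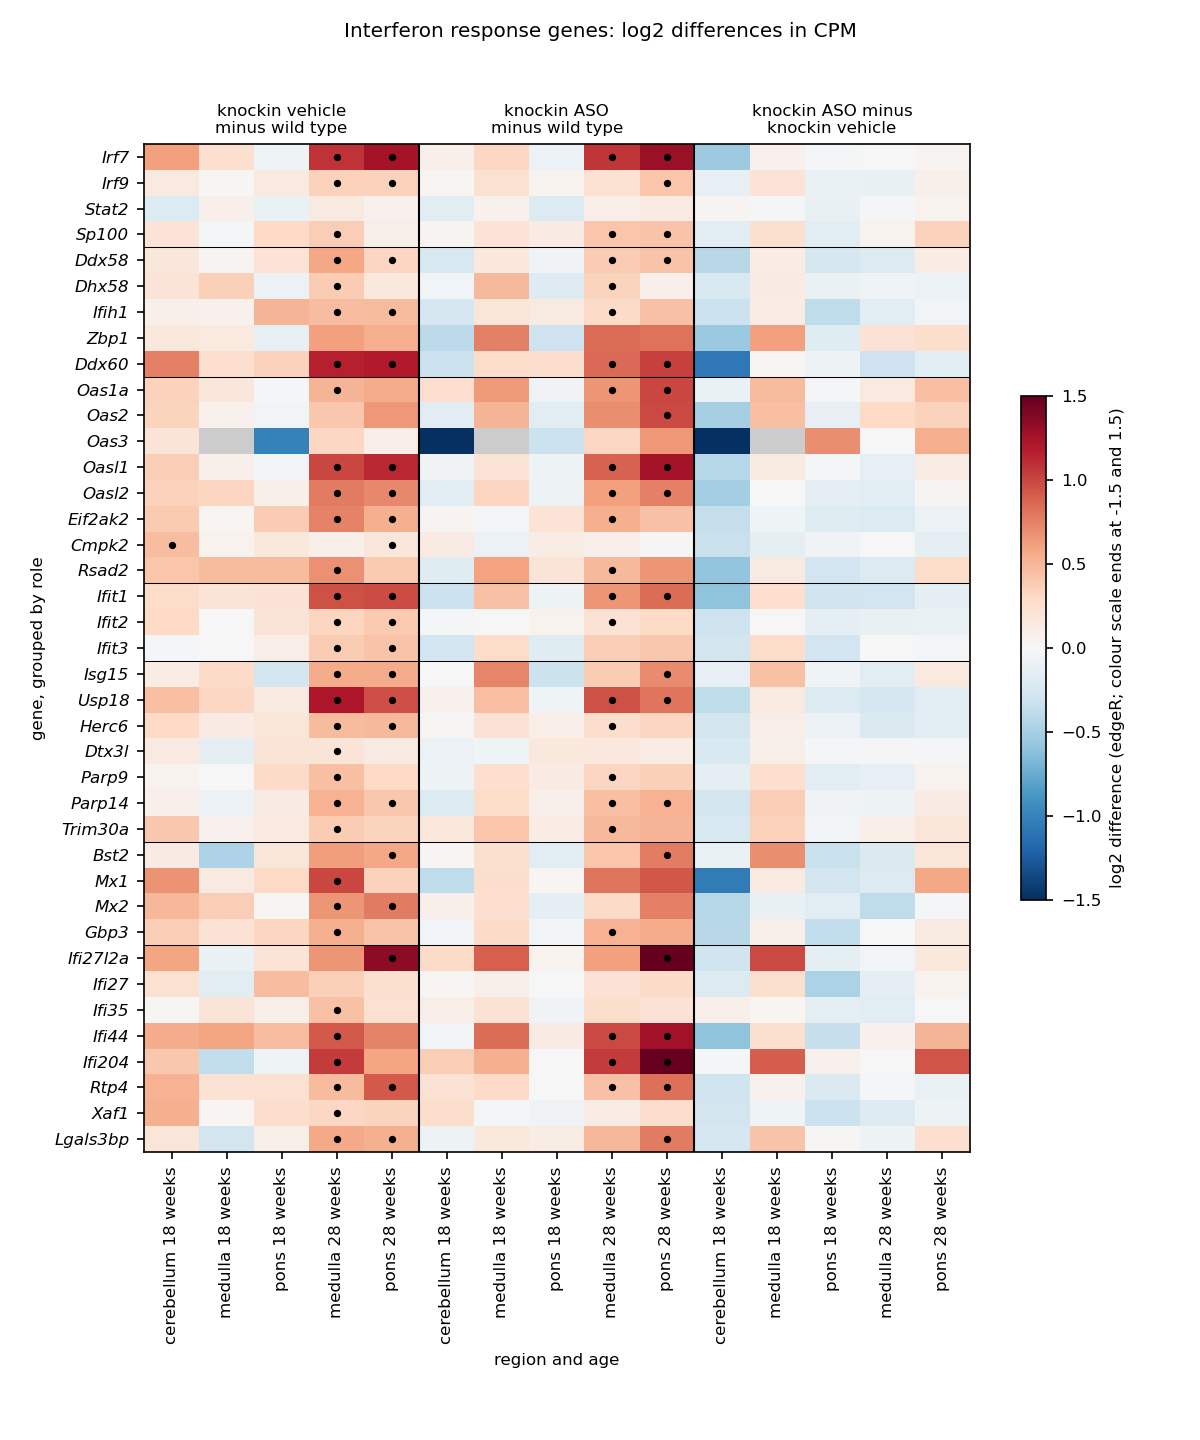
The 39 genes by role (rows) in the 3 comparisons of each region and age (columns). Colour is edgeR's log2 difference, limited to 1.5 in either direction, dots mark calls at an adjusted p under 0.05, and grey is not tested. The knockin against wild type columns at 28 weeks hold 31 calls in medulla and 21 in pons, while the ASO against vehicle columns hold 0.

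Within the batches of medulla, 22 of the 39 genes rose in batch 1 alone, with a median of 0.61, and 17 in batch 2 alone, with a median of 0.43, beside 644 and 4333 calls over all genes in either direction. Without the 4 libraries low in Hox genes 29 rose, and calls over all genes in that fit are not given. The count in pons depended more on single libraries: it was 12 without wild type replicate 2, and 13 without wild type replicate 4 or without vehicle-treated knockin replicate 3. Over all genes these fits called 1012, 1063 and 848 genes, against 2002 with all libraries. Across all alternatives to the processing, 9 of the 31 calls in medulla were never lost (Ddx58, Ddx60, Eif2ak2, Herc6, Ifih1, Irf7, Oasl2, Rsad2 and Usp18). In pons 11 of 21 were never lost (Bst2, Ddx60, Eif2ak2, Herc6, Ifi27l2a, Ifit1, Ifit2, Irf7, Oasl2, Rtp4 and Usp18).

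The mean of log2(CPM + 1) over the 39 genes puts every library on 1 scale. In medulla at 28 weeks it ran from 2.34 to 2.61 in wild type, from 2.64 to 3.09 in vehicle-treated knockin and from 2.60 to 2.97 in ASO-treated knockin. In pons the ranges were 2.34 to 2.54, 2.75 to 2.96 and 2.72 to 3.05. Every vehicle-treated knockin library of both tissues lay above every wild type library, and the ASO libraries lay within or near the range of the vehicle-treated knockin. In medulla ASO replicate 5 (2.604) lay just below the highest wild type library, replicate 8 (2.606), so these groups overlapped.

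**Figure D2:**
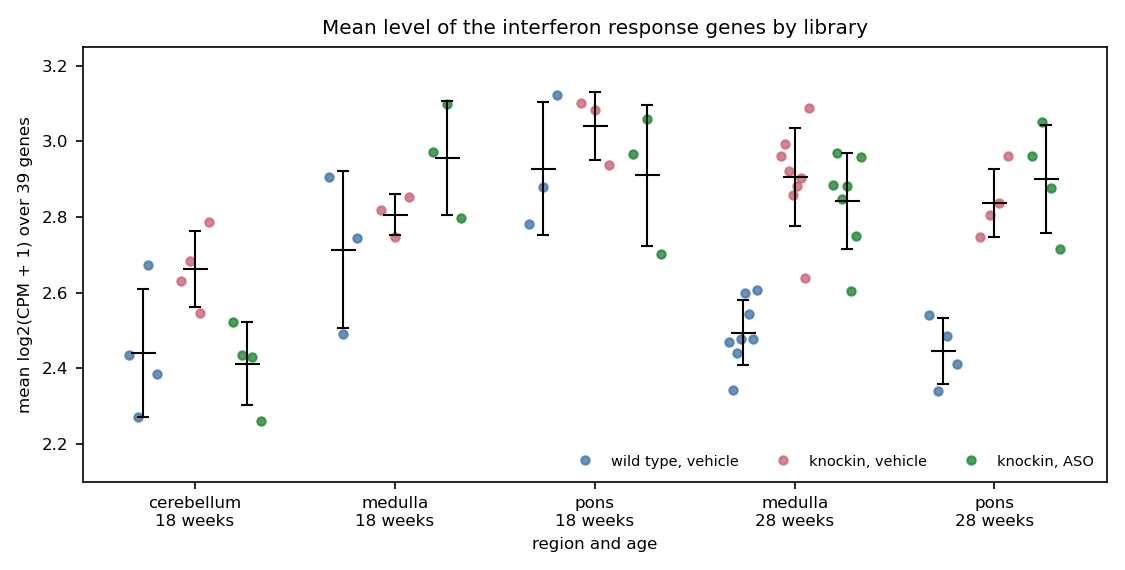
Mean of log2(CPM + 1) over the 39 genes (y axis) in each of the 65 libraries, by region, age and group. Each point is 1 library, and group means carry their SD. At 28 weeks the means of both knockin groups stand above wild type, with wild type at 2.34 to 2.61 in medulla and 2.34 to 2.54 in pons. The lowest ASO library of medulla (2.604) lies just below its highest wild type library (2.606).

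Among the regulators, Irf7 and Irf9 rose in both 28-week tissues, Sp100 rose in medulla, and Stat2 passed in neither. Irf7, the transcription factor that amplifies interferon production, had 2.61, 3.29 and 4.08 CPM as the lowest, median and highest of the 8 wild type medulla libraries. The 8 vehicle-treated knockin libraries had 4.46, 7.16 and 9.68 CPM in the same order. No knockin library was as low as a wild type one, and the log2 difference was 1.08 ± 0.12 (SE; adjusted p = 1.5e-06). In pons Irf7 was at 3.28, 2.32, 3.55 and 2.78 CPM in wild type and at 7.17, 7.57, 6.64 and 7.01 CPM in vehicle-treated knockin. Here too the groups were apart, with a difference of 1.25 ± 0.12 (adjusted p = 0.00017). Exons of Irf7 share 45 bases with Phrf1 on the other strand.

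Irf9, the DNA-binding partner of Stat2, differed by 0.34 in both medulla (adjusted p = 0.0015) and pons (adjusted p = 0.016). It shares 123 exonic bases with Rnf31 on the same strand. Sp100, a nuclear body protein, differed by 0.37 in medulla (adjusted p = 0.0052) and by 0.09 in pons (adjusted p = 0.61). Stat2, a partner of Irf9, was at 29.7, 30.1, 34.0 and 29.8 CPM in wild type pons and at 33.0, 32.2, 32.8 and 31.6 CPM in vehicle-treated knockin. Its groups overlapped in both tissues, and its differences were 0.13 ± 0.05 in medulla (adjusted p = 0.086) and 0.07 ± 0.06 in pons (adjusted p = 0.52).

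The sensors rose in 4 of 5 cases in medulla and in 3 of 5 in pons. Ddx60, a helicase that works beside the RNA sensors and whose promoter is shown above, had 1.16, 1.37 and 1.71 CPM as lowest, median and highest in wild type medulla, and 2.101, 3.27 and 4.04 CPM in vehicle-treated knockin. In pons its 4 wild type libraries held 2.08, 1.60, 1.53 and 1.74 CPM, and the knockin libraries 4.08, 4.01, 4.18 and 3.63 CPM. The groups were apart in both tissues, with log2 differences of 1.17 ± 0.15 (adjusted p = 5.8e-06) and 1.20 ± 0.14 (adjusted p = 0.0004). Ddx58, which encodes the RNA sensor RIG-I, ran from 7.38 to 8.92 CPM in wild type medulla and from 9.86 to 13.3 CPM in vehicle-treated knockin, a difference of 0.58 ± 0.08 (adjusted p = 9.2e-06). In pons the difference was 0.32 ± 0.09 (adjusted p = 0.038).

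Ifih1, which encodes the sensor MDA5, differed by 0.46 ± 0.07 in medulla (adjusted p = 4.8e-05) and 0.47 ± 0.11 in pons (adjusted p = 0.015), and its groups did not overlap in either. Dhx58, the third helicase of that family, rose in medulla by 0.38 (adjusted p = 0.00089) and was at 0.16 in pons (adjusted p = 0.5). Zbp1, a sensor of left-handed nucleic acid, stayed under 1.1 CPM in every wild type and vehicle-treated knockin library of both tissues, and its differences of 0.61 and 0.55 had adjusted p of 0.16 and 0.2.

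Of the genes that act on RNA or nucleotides, 5 of 8 rose in medulla and 4 of 8 in pons. Oasl2, an oligoadenylate synthetase-like protein, had 7.98, 8.98 and 11.5 CPM as lowest, median and highest in wild type medulla and 11.7, 16.4 and 18.3 CPM in vehicle-treated knockin. In pons it was at 10.3, 8.73, 9.78 and 9.13 CPM against 13.7, 13.6, 16.4 and 18.9 CPM. The groups did not overlap in either tissue (differences 0.78 ± 0.10, adjusted p = 4.7e-06, and 0.72 ± 0.15, adjusted p = 0.012). Eif2ak2, the kinase PKR that halts translation on sensing double-stranded RNA, had the smallest adjusted p of the 39 in medulla, 9.4e-08. Its levels ran from 10.6 to 13.4 CPM in wild type and from 16.4 to 22.7 CPM in vehicle-treated knockin, a difference of 0.74 ± 0.07, and in pons it differed by 0.53 ± 0.11 (adjusted p = 0.012).

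Oasl1, a repressor of Irf7 translation, rose by 1.01 ± 0.20 in medulla (adjusted p = 0.0009) and 1.13 ± 0.26 in pons (adjusted p = 0.015), at levels of 0.216 to 1.00 CPM in medulla. Rsad2, the antiviral enzyme viperin, rose by 0.69 in medulla (adjusted p = 0.00067), and was at 0.39 in pons (adjusted p = 0.12). Oas1a, a synthetase that activates RNase L, rose by 0.51 in medulla (adjusted p = 0.017) and was at 0.55 in pons (adjusted p = 0.091). Its relatives Oas2 and Oas3 did not pass, with adjusted p from 0.064 to 0.9, and Oas3 lay at or under 0.375 CPM in all of these libraries. Cmpk2, a nucleotide kinase encoded beside Rsad2, rose in pons, from 33.3, 31.4, 33.5 and 31.0 CPM to 36.5, 37.7, 36.0 and 35.5 CPM (0.17 ± 0.05, adjusted p = 0.033). In medulla it was at 0.07 ± 0.06 (adjusted p = 0.46).

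All 3 Ifit genes, whose proteins bind viral RNA and block its translation, rose in both tissues. Ifit1 had 4.81, 5.51 and 7.47 CPM as lowest, median and highest in wild type medulla and 7.46, 10.6 and 18.9 CPM in vehicle-treated knockin, where replicate 8 was the highest. In pons it was at 6.92, 5.64, 6.60 and 6.01 CPM against 10.01, 12.4, 12.7 and 14.3 CPM. The groups touched in medulla (0.95 ± 0.16, adjusted p = 0.00017) and were apart in pons (0.97 ± 0.13, adjusted p = 0.001). Ifit2 differed by 0.33 and 0.39 (adjusted p = 0.00026 and 0.0079), and Ifit3 by 0.38 and 0.43 (adjusted p = 0.017 and 0.036), in medulla and pons. Ifit1 and Ifit3 carry the ISRE core matches shown above, and reads of Ifit3 may be shared with its near copy Ifit3b.

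All 7 genes of ubiquitin-like modification and ADP-ribosylation rose in medulla and 4 of them in pons. Usp18, the protease that removes Isg15 from proteins and dampens receptor signalling, had 1.10, 1.58 and 2.57 CPM as lowest, median and highest in wild type medulla and 2.95, 3.73 and 4.52 CPM in vehicle-treated knockin. In pons it was at 2.40, 1.54, 2.64 and 1.78 CPM against 3.32, 3.84, 4.16 and 5.07 CPM. The groups were apart in both tissues, by 1.21 ± 0.14 (adjusted p = 3.7e-06) and 0.97 ± 0.17 (adjusted p = 0.0042). Isg15, the ubiquitin-like protein itself, was less even: in medulla it ran from 1.36 to 2.77 CPM in wild type and from 1.72 to 4.06 CPM in vehicle-treated knockin, and the groups overlapped (0.55 ± 0.16, adjusted p = 0.021). In pons it was at 2.66, 1.93, 2.41 and 2.00 CPM against 3.40, 3.16, 3.07 and 3.62 CPM, with no overlap (0.56 ± 0.15, adjusted p = 0.03).

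Herc6, the mouse ligase for Isg15, rose by 0.48 ± 0.07 in medulla (adjusted p = 4.9e-05) and 0.49 ± 0.10 in pons (adjusted p = 0.0082). It shares 1269 exonic bases with Gm45193 on the same strand, and Sp100, Dhx58, Oasl1, Eif2ak2, Usp18, Ifi35 and Rtp4 also overlap another annotated gene by shorter stretches, so their counts may hold some reads of those genes. Parp14, an ADP-ribosyltransferase, rose by 0.52 and 0.40 (adjusted p = 0.0021 and 0.037). Parp9 and its partner ligase Dtx3l rose in medulla, by 0.45 and 0.19, and were at 0.30 and 0.14 in pons (adjusted p = 0.1 and 0.35). Their exons overlap by 458 bases on opposite strands, so part of their counts may be shared. Trim30a, a regulator of inflammatory signalling, rose by 0.38 in medulla (adjusted p = 0.0057) and was at 0.33 in pons (adjusted p = 0.12).

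Of the membrane proteins and GTPases, Mx1, Mx2 and Gbp3 rose in medulla, and Bst2 and Mx2 in pons. Mx2, a dynamin-like GTPase, differed by 0.67 ± 0.13 (adjusted p = 0.00061) and 0.78 ± 0.19 (adjusted p = 0.021) in medulla and pons. Mx1, its relative, differed by 1.01 ± 0.26 (adjusted p = 0.0088) and 0.34 ± 0.31 (adjusted p = 0.53). Bst2, the tetherin that holds budding virus at the membrane, was at 2.94, 3.61, 4.28 and 3.88 CPM in wild type pons and at 4.91, 5.95, 5.26 and 5.92 CPM in vehicle-treated knockin (0.59 ± 0.13, adjusted p = 0.012). In medulla its difference was as large but its spread was greater (0.63 ± 0.30, adjusted p = 0.16): the highest knockin library, replicate 2, held 20.5 CPM against a group median of 6.04 CPM. The same library held the highest sum of 6 choroid plexus markers of the 8, 24535 CPM against a group median of 1931 CPM, and the highest Ifi27, 130 CPM. The part of choroid plexus in these values was not tested. Without that library 32 of the 39 genes rose in medulla. Calls over all genes ran from 3182 to 5411 across the fits that left out 1 library each.

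In the last group, Ifi27l2a had the largest log2 difference of the 39 in pons. This small protein of mitochondrial and nuclear membranes was at 1.51, 1.10, 1.07 and 1.58 CPM in wild type and at 2.86, 3.35, 3.97 and 3.18 CPM in vehicle-treated knockin pons (1.34 ± 0.17, adjusted p = 0.00074). In medulla it ran from 0.654 to 3.21 CPM in wild type and from 1.37 to 5.96 CPM in vehicle-treated knockin, and the groups overlapped (0.66 ± 0.30, adjusted p = 0.14). Rtp4, a chaperone-like protein induced by interferon, rose by 0.47 ± 0.11 in medulla (adjusted p = 0.0028) and by 0.92 ± 0.12 in pons (adjusted p = 0.00074). Ifi204, of a family of DNA sensors, rose by 1.05 ± 0.18 in medulla (adjusted p = 0.00024) and was at 0.59 ± 0.28 in pons (adjusted p = 0.19).

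Lgals3bp, a secreted galectin ligand, rose by 0.57 and 0.53 in medulla and pons (adjusted p = 0.029 and 0.032). Ifi44, Xaf1 and Ifi35 rose in medulla, by 0.92, 0.31 and 0.44, and were at 0.74, 0.34 and 0.23 in pons, where none passed. Ifi27 differed by 0.36 and 0.23 (adjusted p = 0.18 and 0.21). Per kilobase of exon, Ifi27 and Lgals3bp had the highest wild type levels of the 39 in both tissues, 31.8 and 9.94 CPM per kb in medulla, and Oas3 had the lowest, at 0.0215 CPM per kb.

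**Figure D3:**
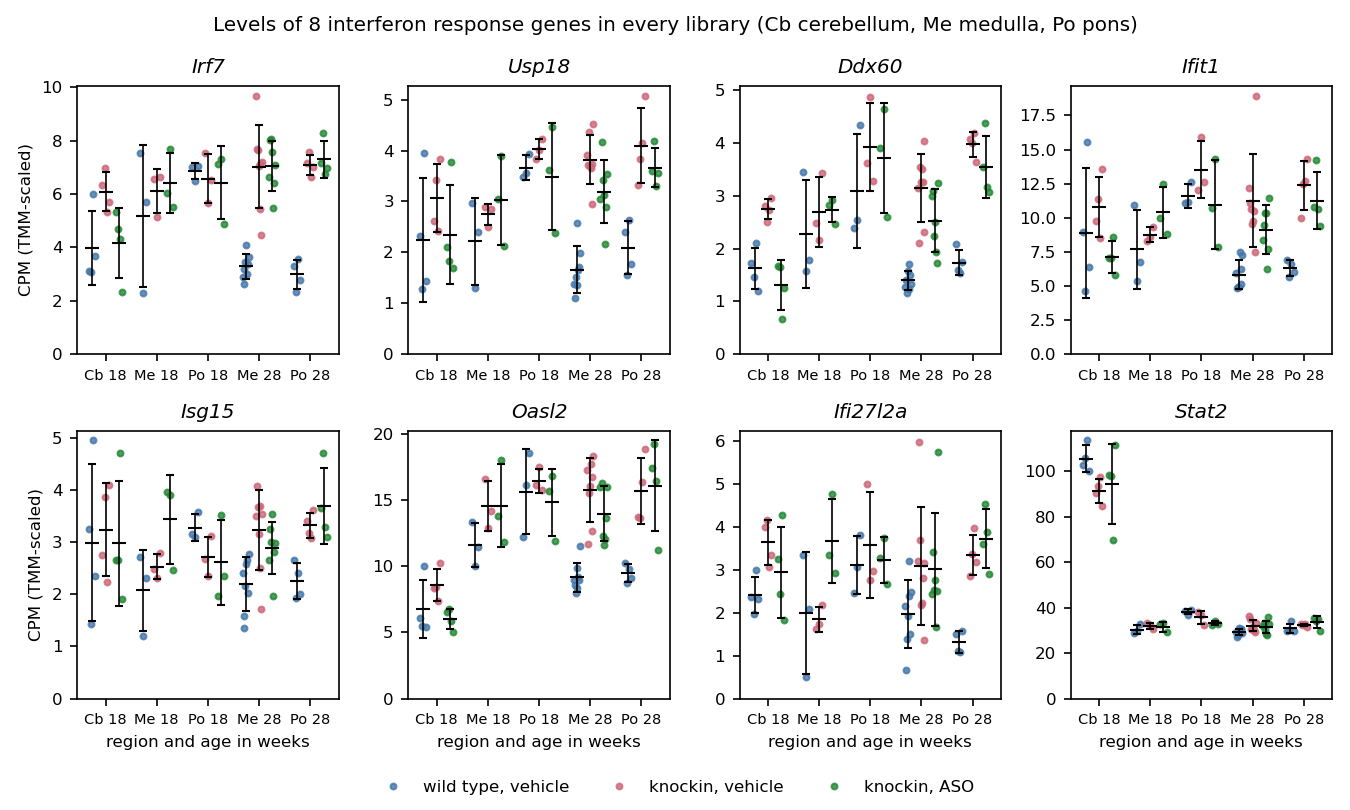
TMM-scaled CPM (y axis) of 8 of the genes in every library, by region, age and group. Each point is 1 library, and group means carry their SD. Irf7, Usp18 and Ddx60 at 28 weeks show knockin libraries above all wild type libraries in medulla and pons, while Stat2 overlaps.

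The number of genes whose vehicle-treated knockin libraries all lay above all wild type libraries was 11 of 39 in medulla, against 1.24% of all genes, and 27 of 39 in pons, against 7.73% of all genes with smaller groups. The difference between medulla and pons in the knockin effect was tested as an interaction at 28 weeks. None of the 39 was called (0.0184% of all genes were), and the median of the 39 differences was 0.06. An unadjusted p under 0.05 was found for 2 of the 39, and for 1753 of all 21718 genes. Those 2 were Rtp4, lower in its effect in medulla by 0.44 on the log2 scale (95% interval -0.78 to -0.10, adjusted p = 0.49), and Ddx58, at 0.27 (0.03 to 0.52, adjusted p = 0.58).

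The second comparison, ASO-treated against vehicle-treated knockin, asks whether the ASO lowered the rise. No member was called lower or higher in either tissue at 28 weeks, and Atxn1 itself passed this test in medulla but not in pons. Over all genes, 1.69% were called in medulla and 0.0929% in pons. In medulla, where 0.386% of all genes were called lower, 31 of the 39 differences were below 0, with a median of -0.11 and a range of -0.38 to 0.30. Of the 39, 7 were lower at an unadjusted p under 0.05, and the smallest adjusted p was 0.14. Over all genes of medulla 2473 of 20465 had an unadjusted p under 0.05, in either direction. In pons, where 0.00978% of all genes were called lower, 24 of the 39 differences were above 0, with a median of 0.05 and a range of -0.17 to 0.94. There 3 genes were higher and 1 lower at an unadjusted p under 0.05, and the smallest adjusted p was again 0.14. Over all genes of pons 2993 of 20458 had such a p, a larger share than among the 39. This comparison shares its vehicle-treated knockin libraries with the first, so both sets of values are given side by side and not compared further.

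Irf7 had 5.46, 7.08 and 8.06 CPM as lowest, median and highest of the 7 ASO libraries of medulla, against the median of 7.16 CPM under vehicle. In pons the 4 ASO libraries held 7.16, 8.29, 6.77 and 6.98 CPM. The groups overlapped in both tissues, and the log2 difference was -0.01 in medulla (95% interval -0.24 to 0.23) and 0.04 in pons (-0.19 to 0.27). Eif2ak2, at a median of 16.8 CPM under ASO and 19.6 CPM under vehicle in medulla, had a difference of -0.21 (-0.34 to -0.08, adjusted p = 0.14) there and -0.09 (-0.31 to 0.13) in pons. Ddx60 was at -0.32 in medulla (-0.61 to -0.02, adjusted p = 0.39) and -0.17 in pons, and Usp18 at -0.25 (-0.54 to 0.04) and -0.16. Mx2 had the lowest difference of the 39 in medulla, -0.38 (-0.63 to -0.12, adjusted p = 0.18), and was at -0.02 in pons.

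Ifit1 was at -0.29 in medulla (-0.60 to 0.02) and -0.14 in pons (-0.39 to 0.11), and Isg15 at -0.17 (-0.50 to 0.16) and 0.15 (-0.13 to 0.44). Each of these intervals includes 0. The values furthest above 0 were in pons, where Ifi204 went from 0.920, 0.787, 0.856 and 1.28 CPM under vehicle to 2.93, 1.34, 1.60 and 1.51 CPM under ASO, with no overlap (0.94, 95% interval 0.42 to 1.45, adjusted p = 0.15). Sp100 was at 6.37, 7.04, 6.15 and 7.24 CPM under vehicle and 9.08, 8.23, 9.27 and 7.39 CPM under ASO (0.34, 0.16 to 0.53, adjusted p = 0.14). Cmpk2 lay the other way in pons, at 33.1, 32.5, 30.8 and 34.6 CPM under ASO, below all vehicle libraries (-0.15, -0.24 to -0.06, adjusted p = 0.16).

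Leaving out the library labelled ASO replicate 2, in which Atxn1 was not lowered, gave 1 call in medulla, Ddx58 at -0.27 (adjusted p = 0.038, against -0.20 and 0.26 with it), and 0 calls in pons. Leaving out vehicle-treated knockin replicate 2 also gave 1 call in medulla, Eif2ak2 at -0.24 (adjusted p = 0.041). Over all genes, leaving out 1 library at a time gave 191 to 611 calls in medulla (346 with all libraries). Neither of these single calls can therefore be read as a result about the members. DESeq2 called 0 in medulla and 2 higher in pons, Ifi204 (adjusted p = 0.029) and Sp100 (adjusted p = 0.02), and its share over all genes is not given. The difference between medulla and pons in the ASO effect gave 0 calls among the 39 (0.0% of all genes) and a median of -0.17. An unadjusted p under 0.05 was found for 4 of the 39, and for 884 of all 21718 genes. Ifi204 had the smallest p (-0.94, 95% interval -1.58 to -0.31, adjusted p = 1.0).

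**Figure D4:**
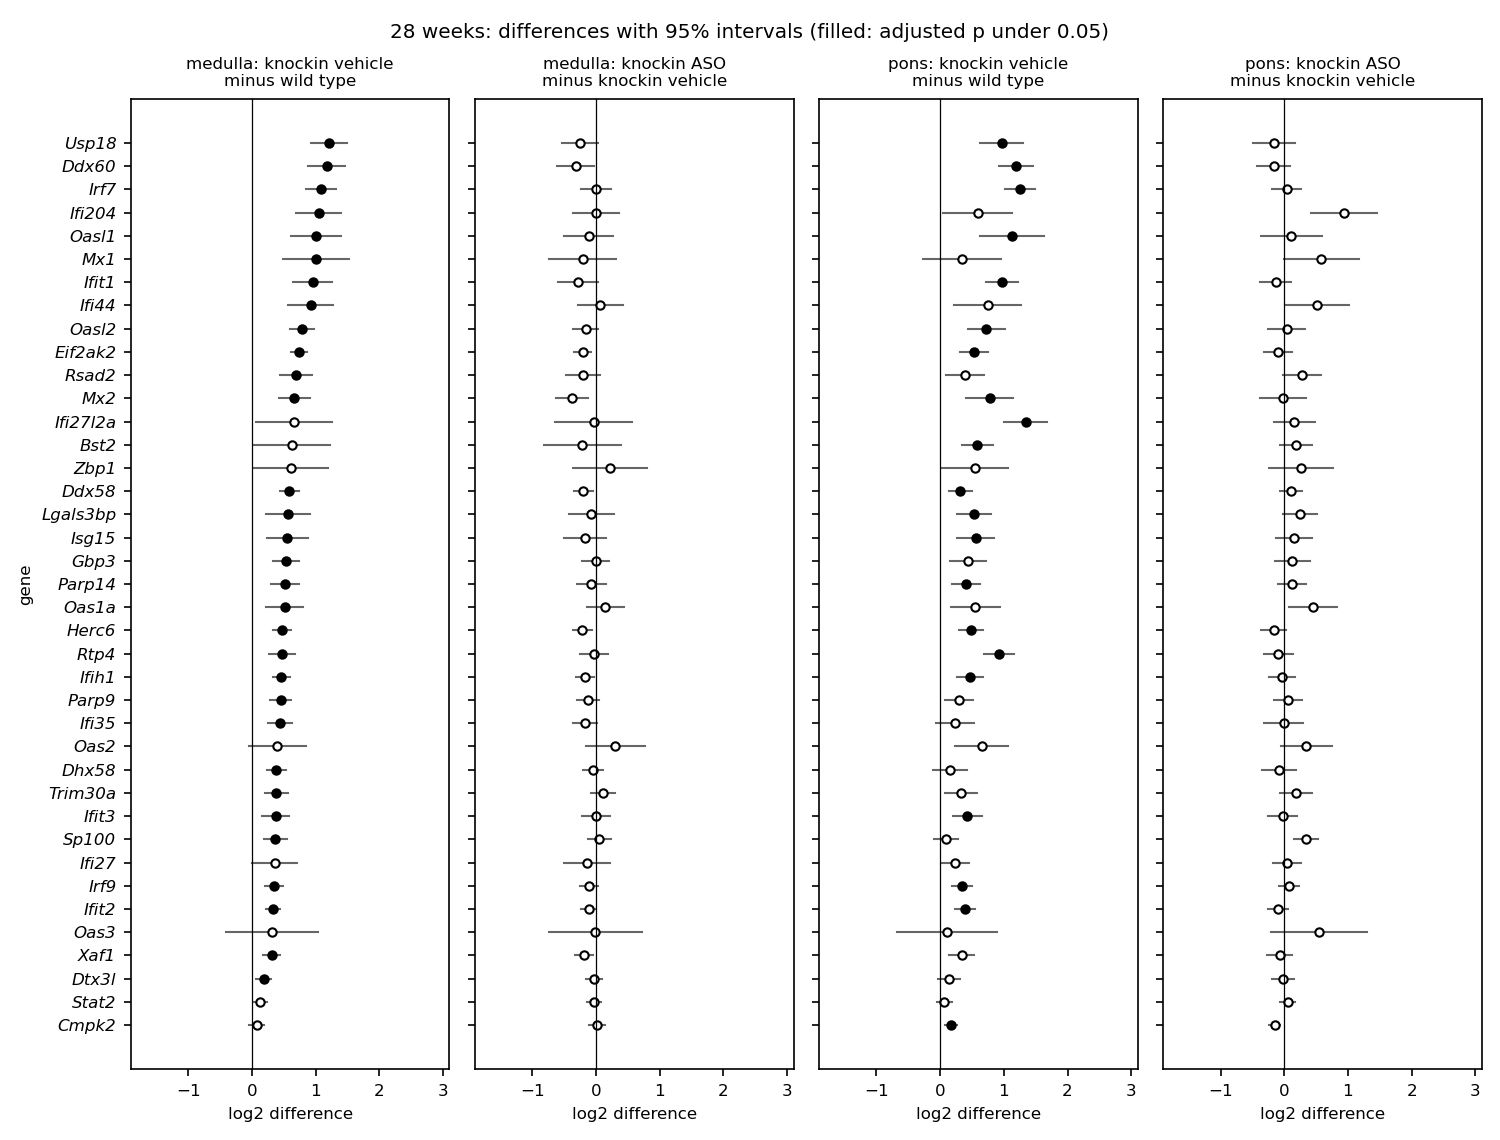
Log2 differences of the 39 genes at 28 weeks (x axis) with 95% intervals, in 4 panels: knockin against wild type and ASO against vehicle, in medulla and pons. Filled points are calls at an adjusted p under 0.05. The knockin panels lie right of 0, at medians of 0.52 and 0.47, and the ASO panels lie around 0, at medians of -0.11 and 0.05.

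The third comparison set ASO-treated knockin against vehicle-treated wild type, and shares libraries with both of the others. In medulla 22 of the 39 genes were higher and 0 lower, against 1.77% of all genes called higher and 2.02% lower, with a median of 0.44. In pons 19 were higher and 0 lower, against 0.474% of all genes called higher and 0.591% lower, with a median of 0.65. All 39 differences were above 0 in both tissues, and 13 genes were called in both. The groups did not overlap for 7 genes in medulla and 27 in pons, against 0.401% and 5.08% of all genes. Irf7 stood at 1.08 (adjusted p = 0.0001) and 1.29 (adjusted p = 0.00018), Ddx60 at 0.86 (adjusted p = 0.0036) and 1.03 (adjusted p = 0.0045), and Eif2ak2 at 0.53 (adjusted p = 0.00019) and 0.44 (adjusted p = 0.074), in medulla and pons. Ifi27l2a was at 1.499 in pons (adjusted p = 0.0013) and Ifi204 at 1.53 (adjusted p = 0.026).

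These counts depended on the libraries used. In medulla 11 of the 39 were called in batch 1 alone, with a median of 0.63, and 2 in batch 2 alone, with a median of 0.25, where the ASO group had 3 libraries. Calls over all genes in these fits are not given here, so 11 against 2 cannot be read as a result about the members. Without ASO replicate 2 the counts were 16 in medulla and 8 in pons (553 and 120 over all genes). In pons they ranged from 4, without wild type replicate 2 or 4, to 26, without vehicle-treated knockin replicate 4, and the calls over all genes in either direction ranged from 16 to 1102 (218 with all libraries). There, leaving out any of ASO replicates 1 to 3, vehicle-treated knockin replicates 1 to 3 or any wild type library gave 12 or fewer. Calls that no alternative ended were 2 of 22 in medulla (Eif2ak2 and Irf7) and 4 of 19 in pons (Ddx60, Ifi27l2a, Irf7 and Rtp4).

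At 18 weeks few members passed the test. In cerebellum 1 of the 39, Cmpk2, rose, against 0.654% of all genes called higher, from 14.98, 15.6, 17.4 and 15.9 CPM in wild type to 21.3, 21.5, 22.1 and 22.9 CPM in vehicle-treated knockin (0.46, adjusted p = 0.013). This call ended without wild type replicate 1 or 2, and 6 genes were called without ASO replicate 3 (Ddx60, Eif2ak2, Ifi27l2a and Xaf1 higher and Stat2 lower beside Cmpk2), while the calls over all genes went from 552 to 2914 in the same fit. Of the 39 differences 37 were above 0, with a median of 0.30, and 6 genes had all knockin libraries above all wild type ones, against 9.44% of all genes. Ddx60 was among these 6, at 1.72, 1.47, 2.11 and 1.20 CPM in wild type and 2.799, 2.51, 2.73 and 2.96 CPM in knockin (0.76, adjusted p = 0.17). Wild type replicate 3 was the highest of its group in Irf7 (6.00 CPM against 3.097, 3.08 and 3.67), Ifit1 (15.5 CPM against 8.95, 4.66 and 6.41), Oasl2, Isg15 and Usp18.

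The ASO values of cerebellum lay below the vehicle values in 37 of the 39 genes, with a median of -0.30, and none passed the test (0.0% of all genes were called lower). Of these, 9 were lower at an unadjusted p under 0.05, and 9 had all ASO libraries below all vehicle ones, against 1.62% of all genes. Over all genes 1556 of 20350 had an unadjusted p under 0.05, in either direction. Ddx60 went to 1.67, 1.64, 0.662 and 1.24 CPM under ASO, below every vehicle library (-1.08, adjusted p = 0.2), and Cmpk2 to 17.5, 20.03, 16.7 and 15.5 CPM (-0.33, adjusted p = 0.23). DESeq2 called 3 of them lower: Ddx60 (adjusted p = 0.0094), Ddx58 (adjusted p = 0.017) and Cmpk2 (adjusted p = 0.018). The share of all genes above is edgeR's, and that of DESeq2 is not given. Against wild type, the ASO group had 0 calls (0.0% of all genes) and a median of -0.04.

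In medulla and pons at 18 weeks no member was called in any comparison, and 0.0% of all genes were. The knockin differences had medians of 0.07 over the 38 genes tested in medulla (Oas3 did not pass the filter) and 0.16 over 39 in pons, with 3 and 2 genes at an unadjusted p under 0.05. Over all genes 1121 of 19514 in medulla and 2414 of 19806 in pons had such a p. Irf7 was at 7.53, 2.27 and 5.71 CPM in medulla libraries labelled wild type and at 6.55, 5.15 and 6.63 CPM in vehicle-treated knockin, and the groups overlapped. In pons it was at 7.02, 6.51 and 7.05 CPM against 7.53, 5.67 and 6.54 CPM. Without both libraries whose Atxn1 went against their labels the counts stayed at 0, with medians of 0.09 and 0.29, and without wild type replicate 1 of pons the count there was 0 as well.

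The change with age was tested as an interaction in each region, with both ages in 1 model. The knockin effect was larger at 28 than at 18 weeks by a median of 0.37 in medulla, where 38 of 39 differences were above 0. There 19 of the 39 had an unadjusted p under 0.05, beside 2646 of all 21757 genes, and none was called (0.0046% of all genes were). Eif2ak2 had the smallest adjusted p, 0.058 (0.71, 95% interval 0.41 to 1.01). It was called without ASO replicate 2 and wild type replicate 3 (adjusted p = 0.033) and by DESeq2 (adjusted p = 0.0038). In pons the median was 0.29, 10 genes had an unadjusted p under 0.05 and none was called (0.0% of all genes). Over all genes of pons 4883 of 21230 had such a p, a share near that of the 10 among the 39. Irf7 came closest (1.32, 0.90 to 1.74, adjusted p = 0.078), while DESeq2 called Irf7, Ifit1 and Usp18. The shares of all genes in this paragraph are edgeR's, and those of DESeq2 are not given. A change of the knockin effect can lie in either group. The mean of log2(CPM + 1) over the 39 genes was 2.71 at 18 and 2.49 at 28 weeks in wild type medulla. In wild type pons it was 2.93 and 2.45. In vehicle-treated knockin the means were 2.81 and 2.91 in medulla, and 3.04 and 2.84 in pons. Each age was scaled on its own, and these levels were not tested between ages. For the ASO effect the same age difference gave 0 calls, with medians of -0.29 in medulla and 0.20 in pons (0.0% of all genes). Between regions at 18 weeks, cerebellum against medulla and against pons gave 0 calls among the 39 (0.374% and 0.0513% of all genes) and medians of 0.14 and 0.13.

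The rest of the pathway was read from fixed lists. The 21 interferon genes themselves gave almost no reads: 7 were at 0 in every library, the summed count of all 21 was 0 to 10 per library, and none passed the filter, Ifnb1 and Ifng included. Of 14 receptors, kinases and their negative regulators 4 rose in medulla at 28 weeks and 1 in pons. Pias1, an inhibitor of this signalling, rose by 0.15 and 0.14 (adjusted p = 0.011 and 0.044), and Ifnlr1, a receptor of type III interferon, rose by 0.39 in medulla. Ifnar1 and Ifnar2 lay between 0.01 and 0.11 in both tissues, with adjusted p from 0.36 to 0.95. Of 25 tested genes of the induction pathway 6 rose in medulla and 1 in pons. As stated above, 9.28% and 4.14% of all genes were called higher in these tissues, and a list's count near that share says nothing of the list. Trim25, the ligase that activates RIG-I, rose in both, by 0.56 (adjusted p = 2.2e-05) and 0.36 (adjusted p = 0.043), and in medulla the DNA sensor Aim2 rose by 0.41 and the RNA receptor Tlr3 by 0.30.

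Among other interferon-induced genes, 16 of 58 tested rose in medulla, and in pons 6 of 56 rose and 1 fell. Parp12, an ADP-ribosyltransferase, rose in both tissues and in cerebellum (0.50, 0.38 and 0.57). Irgm1, a GTPase of the immunity-related family, did as well (0.51, 0.46 and 0.60), as 1 of 6 genes of its list of 13 guanylate-binding proteins and related GTPases to rise in medulla and of 3 in pons. Of 14 genes of class I antigen presentation, 9 rose in medulla, H2-D1 by 0.23 (adjusted p = 0.00036), and 2 in pons, Psme1 by 0.44 (adjusted p = 0.0011) and Tap2 by 0.29. Of 6 class II genes 0 rose, and H2-DMa fell by 0.24 in medulla. Cxcl10, a chemokine induced by interferon, was at 0.02 and -0.48 (adjusted p = 0.97 and 0.62). Of 8 tested relatives of Ifi204, 3 rose in medulla and 2 in pons, with Ifi213 in both (1.17 and 1.81), and in cerebellum Mndal and Ifi203 rose (1.62 and 1.35). These genes are near copies of each other, and how reads were divided among them is uncertain. Under ASO against vehicle, 2 genes of these lists passed in medulla, Tlr7 higher (0.52, adjusted p = 0.017) and Aim2 lower (-0.26, adjusted p = 0.049), and none in pons. Over all genes 1.69% were called in this comparison in medulla, so 2 calls among lists of this size say nothing of the lists.

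Markers of the cell types that can express the response were summed in the same libraries. The 19 microglia markers, led by P2ry12 and Tmem119, ran from 605 to 849 CPM in wild type medulla at 28 weeks, from 510 to 765 CPM in vehicle-treated knockin and from 558 to 864 CPM under ASO. In pons the ranges were 579 to 611, 520 to 621 and 610 to 1105 CPM. None of the 19 was called between knockin and wild type in any region or age, and 4 rose under ASO in medulla, among them Cd68, Fcrls and Trem2. None of these markers was at 0 throughout a group. The 12 astrocyte markers were lower in knockin, with 9 called in medulla and 7 in pons: their sum was 5409 to 7078 CPM in wild type and 3523 to 4495 CPM in knockin medulla, and 4855 to 5071 CPM and 3061 to 3549 CPM in pons. Over all genes, 9.99% were called lower in knockin medulla and 5.65% in knockin pons. Under ASO 8 of the 12 rose in medulla, where 267 of all 20465 genes were called higher.

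Endothelial markers summed to 312 to 399 CPM in wild type and 292 to 436 CPM in knockin medulla, and 3 of 10 fell in pons (362 to 405 against 304 to 333 CPM). Of all genes in pons, 5.65% were called lower. Of 15 lymphocyte markers, Ighm fell in both tissues, and the sum was 43.5 to 91.1 CPM in wild type and 27.7 to 49.3 CPM in knockin medulla, and 38.97 to 52.9 against 20.6 to 25.3 CPM in pons. Markers of infiltrating monocytes summed to 5.64 to 10.5 CPM and 4.61 to 15.7 CPM in medulla, with 0 of 9 called. The part of cell composition in the differences of the 39 genes was not tested.

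**Figure D5:**
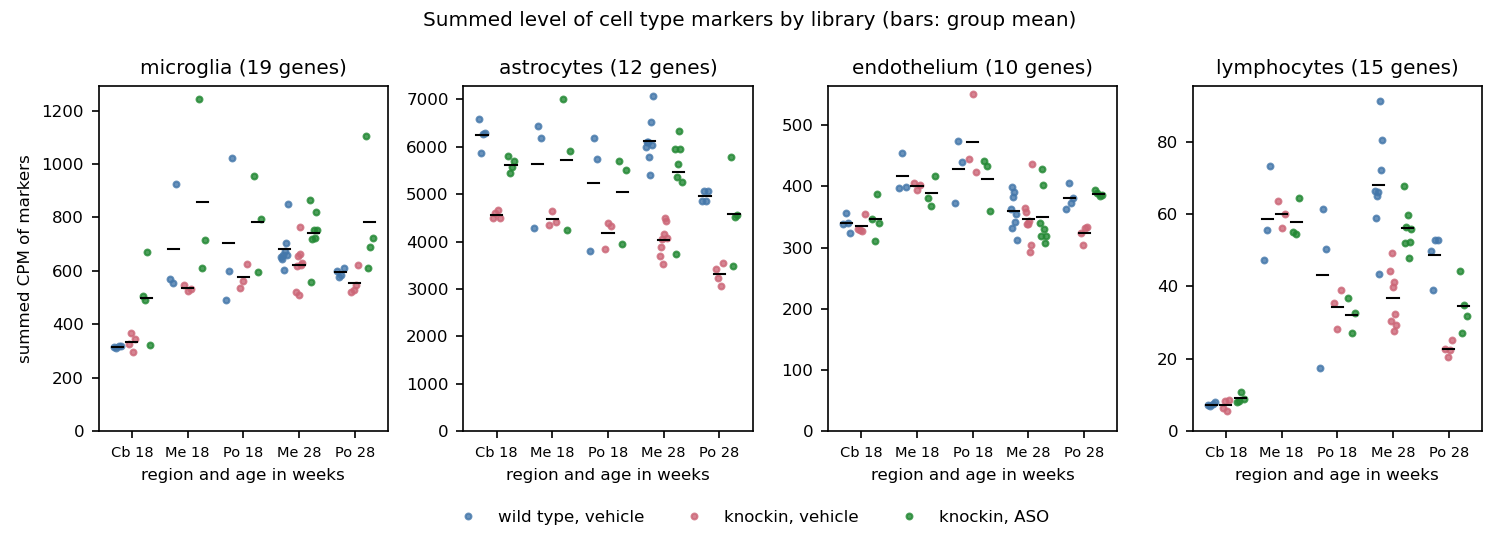
Summed CPM (y axis) of markers of microglia (19 genes), astrocytes (12), endothelium (10) and lymphocytes (15) in every library, by region, age and group. Points are libraries and bars are group means. At 28 weeks the astrocyte sum is lower in vehicle-treated knockin than in wild type, at 3523 to 4495 CPM against 5409 to 7078 CPM in medulla.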

How the data were processed

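RNA of 3 hindbrain regions was sequenced from TruSeq stranded libraries, per the labels. The authors deposited raw counts of reads per gene, and per the submitters' processing notes the tools were CASAVA 1.8, HISAT2 2.0.2, featureCounts of Subread, R 3.3.3 and DESeq2 1.14.1, with the build GRCm38. Even numbers made up 70.0% to 78.6% of each library's counts between 1 and 20. Counting both mates of a pair would give such an excess, and a count would then be a mate and not a fragment. The counter's pair and strand settings are not given in the sources used here. All 65 columns matched a sample and 0 were left out.

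GENCODE vM21 named 49411 IDs; the other 259 held 0.0346% of counts and stayed in the tests. The 3 groups of each region and age entered 1 model (edgeR 4.0.16, limma 3.58.1, R 4.3.3; TMM, filterByExpr at a minimum count of 10, robust quasi-likelihood F test, Benjamini-Hochberg over all genes), with the labelled batch as a term for medulla at 28 weeks. A call is an adjusted p under 0.05, and 95% intervals are the estimate ± 1.96 SE. Interactions came from joint models. Libraries of different regions with the same number were treated as independent. Equal replicate numbers were not taken as pairs, because they carry different numbers in the column names and in no comparison did every pair correlate above 0.1.

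The members and the gene lists were chosen with earlier results of these data known. All 39 members, Atxn1 and a few pathway genes (Ifnar1, Ifnar2, Ifnb1, Ifng and Cxcl10) could be named, and of each other list up to 3 called genes of smallest adjusted p, or up to 2 of smallest p where none was called. The text describes some of the genes this rule allows, and not all. The alternatives were DESeq2 1.42.0, its size factors in edgeR, no filter, a minimum count of 50, only the groups compared, a replicate block, batches alone, no batch term and each library left out. The procedure was tested on simulated data.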

Additional observations from a re-analysis of the deposited data

Results flagged for a closer look

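In groups of 4 to 10 libraries, the gap between the most extreme library and its nearest neighbour was set against the range of the group (Dixon's test at 95%), for Atxn1, for the mean level of the 39 genes and for 20 of the genes singly. Of 198 groups examined 16 had such a library, and chance flags about 1 in 20 groups. For Atxn1 it was ASO replicate 2 in medulla at 28 weeks (49.3 CPM).

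In vehicle-treated knockin medulla at 28 weeks, Bst2 (20.5 CPM, replicate 2), Ifi204 (2.65 CPM, replicate 8) and Ifit1 (18.9 CPM, replicate 8) each had a high library, while Cmpk2 (28.1 CPM, replicate 2) and Rtp4 (3.86 CPM) had a low one. In the ASO group of that tissue Ifi27l2a was high in replicate 7 (5.73 CPM), and in wild type Ifih1 had a low library (6.59 CPM) and Oasl1 a high one (0.590 CPM). In pons at 28 weeks Ddx58 (8.93 CPM) and Stat2 (34.0 CPM) each had a high wild type library, and Ifi204 a high ASO library (2.93 CPM).

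In cerebellum 1 ASO library stood apart in Mx2 (1.48 CPM), and 1 wild type library each in Oas1a (0.565 CPM), Oasl1 (0.135 CPM) and Oasl2 (10.01 CPM, replicate 3).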

How the results depend on the processing

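None of the 94 called differences of single genes reversed its direction under an alternative, which was not examined for differences that were not called. Counted as a call under 1 setting, 2216 kept their side of the threshold and 364 lost it. DESeq2 gave 2 calls for knockin against wild type in cerebellum (1 in edgeR), 3 lower for ASO against vehicle there and 2 higher in pons at 28 weeks (0 and 0), and, for the change of the knockin effect with age, 1 in medulla and 3 in pons (0 and 0). How many genes DESeq2 called over all genes is not given, so these counts have no share beside them. DESeq2 also called members higher at 28 weeks that edgeR did not. For knockin against wild type in pons these were Gbp3, Ifi44, Oas1a, Oas2 and Xaf1. For ASO against wild type they were Ifit3, Irf9 and Oas2 in medulla. In pons they were Eif2ak2, Gbp3, Herc6, Ifih1, Ifit2, Ifit3, Mx2, Parp9, Rsad2 and Trim30a. In cerebellum the minimum count of 50 gave 2 calls for knockin against wild type and a model of only these groups gave 7, of which 6 were higher, with 3161 calls over all genes (552 with all groups). In pons at 28 weeks such a model gave 12 calls for ASO against wild type (19 with all 3 groups). Calls over all genes in that fit, and under the minimum count of 50, are not given. Batch 2 alone gave 17 knockin calls in medulla (31 with both batches) and 2 for ASO against wild type, and batch 1 alone gave 11 (22 with both); fewer libraries enter these fits. The age change in medulla without ASO replicate 2 and wild type replicate 3 of each set gave 1 call.

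With a replicate block, which pairs libraries by number only, the knockin calls were 0 in cerebellum, 29 in medulla and 16 in pons at 28 weeks, and the ASO against wild type calls 17 and 5. Calls over all genes under the block are not given, so these counts have no share beside them. The correlation of deviations between libraries of equal number ran from -0.48 to 0.44, so the numbers were not read as pairs.

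Leaving out 1 library at a time gave 29 to 32 knockin calls in medulla at 28 weeks, 12 to 22 in pons and 0 to 6 in cerebellum. Calls over all genes, in the same order, ran from 3182 to 5411, from 831 to 4259 and from 277 to 2914. ASO against vehicle gave 0 to 1 in medulla and 0 to 0 elsewhere, and ASO against wild type 15 to 26 in medulla and 4 to 26 in pons. Over all genes the calls for ASO against wild type ran from 381 to 1608 in medulla and from 16 to 1102 in pons. Single libraries were not left out of the interaction models. Chosen after seeing the data were counts halved and rounded, fits without the medulla libraries low in Hox genes, fits at 18 weeks without both libraries whose Atxn1 went against the label, and an animal block for medulla and pons, and none moved a count by over 1.5 times. Oas3, the member of lowest level per kilobase in medulla and pons at 28 weeks, had too few counts to be tested in medulla at 18 weeks. The causes of these changes were not tested.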

Other observations

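Wild type levels at the 2 ages are given as values of separate libraries with no test, each scaled within its own region and age. In pons Irf7 was at 7.02, 6.51 and 7.05 CPM at 18 weeks and at 2.32 to 3.55 CPM in the 4 libraries at 28 weeks, and Ifit1 at 11.05, 11.12 and 12.65 CPM and 5.64 to 6.92 CPM. In medulla Eif2ak2 was at 21.84, 17.4 and 19.84 CPM at 18 weeks and at 10.6 to 13.4 CPM in the 8 libraries at 28 weeks. These ranges did not overlap, with or without wild type replicate 3 (the last value of each 18-week trio), whose Atxn1 went against its label, or replicate 1 (the first). Irf7 in medulla did overlap, at 7.53, 2.27 and 5.71 CPM at 18 weeks and 2.61 to 4.08 CPM at 28 weeks. Age and whatever else differed between the 18-week and 28-week sets cannot be told apart. Stat2 stood at 105 ± 6.55 CPM in wild type cerebellum (SD, 4 libraries) on 1 scale over all 65 libraries, where its means in wild type medulla and pons ran from 29.7 to 38.4 CPM.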
